A study of Mus musculus with 6 samples.

Results

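Sema5b and Slc15a2 lie on mouse chromosome 16 and mark the ends of an interval of 1.24 Mb, from 35541154 to 36785158 (GRCm38, the assembly that mm10 stands for). The genes described are these 2 and 8 more that lie between them or just beyond Slc15a2: Hspbap1, Kpna1, Fam162a, Cd86, Ildr1, Eaf2, Iqcb1 and Golgb1. They make up 10 of the 46329 gene symbols in the deposited tables, and each had 1 row there. Sema5b and Slc15a2 were selected on their fold change between the groups compared here, so their values are a description without a test. The other 8 were chosen by position and not by their own values, and the question asked of them was whether transcripts of genes near those ends also differed between the groups.

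Each group held 3 libraries of neutrophils isolated by flow cytometry from the bone marrow of male mice with the genotype WT. The Control group was set against a group under chronic unpredictable mild stress (CUMS), in which changing environmental stressors follow one another, here for 4 weeks. The labels name no strain, age or sorting marker and do not tie libraries to single animals. The p-values therefore set each group difference only against the spread between these libraries, which may be technical, and need not carry over to other mice. All 15 neutrophil markers examined were read in these libraries and summed to between 115347 and 146393 CPM (the usual depth-scaled count unit, here with TMM library factors). Among them Ly6g, the surface marker of mouse neutrophils, stood at 454 ± 22.7 CPM in Control libraries and 434 ± 55.8 CPM in CUMS libraries (SD, n = 3 each). The groups were not alike over that list, in which 3 markers rose and 2 fell in CUMS by the test described below. Of all genes tested, 2.36% rose and 2.14% fell. The protease gene Elane rose from 0.454 ± 0.133 to 2.13 ± 0.517 CPM, Mpo from 3.42 ± 0.852 to 6.95 ± 0.70 CPM and Mmp9 from 8571 ± 191 to 9306 ± 53.4 CPM. The granule genes Ltf and Camp fell, by 0.11 and 0.27 on the log2 scale.

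Semaphorins are secreted or membrane-bound proteins that signal through plexins and neuropilins to steer axons and migrating cells, and several act between immune cells. Sema5b encodes a class 5 semaphorin, a transmembrane protein with thrombospondin type 1 repeats. Slc15a2 encodes PEPT2, a proton-coupled transporter of dipeptides and tripeptides that recovers peptides in the kidney and can carry bacterial peptidoglycan fragments, the ligands of NOD receptors, into cells.

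The bases just before the outermost annotated start of the 2 end genes are shown because transcripts of both were lower in the same 3 libraries. Each stretch reads 5′ to 3′ on the gene's own strand and is taken from RefSeq sequence of GRCm38.p6, at chr16:35541112-35541144 (plus strand) and chr16:36785159-36785212 (minus strand). Capitals mark a GC box, read on the opposite strand. The stretch of Sema5b holds none, and it stops short of the RefSeq start given above because GENCODE starts the gene a few bases earlier.
Sema5b: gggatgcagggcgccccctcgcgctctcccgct
Slc15a2: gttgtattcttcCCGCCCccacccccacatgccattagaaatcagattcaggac

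The start regions differ in composition. Windows of 300 bases were used, 250 before a RefSeq start and 50 after it. For these 2 genes that start is not the outermost one given above. The windows run from 35541112 to 35541411 at Sema5b and from 36784913 to 36785212 at Slc15a2, so most of each lies inside the annotated gene. GC content was 73% at Sema5b with 27 CpG dinucleotides and 46.3% at Slc15a2 with 5 CpG. The medians over 32851 such windows were 52.7% and 7 CpG. Both strands were searched for 7 short motifs. The GC box (letters GGGCGG) lies in 35.7% of all windows, and the Slc15a2 window held it. The core of glucocorticoid receptor sites (letters TGTTCT) lies in 19% and the core of CREB sites (letters TGACG) in 20.8%, and the Slc15a2 window held both. Neither window held the TATA box (letters TATAAA, 13.6%), the CCAAT box (letters CCAAT, 37.4%), the PU.1 core (letters GAGGAA, 28.3%) or the E-box (letters CACGTG, 7.15%). The Sema5b window held none of the 7. A match is a description of letters and not a site. Of the 10 genes, 7 had such a window.

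Sema5b transcript was read in every Control library and listed at 0 in every CUMS library. The Control libraries measured 3.72, 3.35 and 4.03 CPM in replicates 1 to 3. These came from 292, 346 and 342 estimated counts, or 73, 86.5 and 85.5 read pairs, since a read pair was worth about 4 estimated counts. Against a floor of 3 read pairs per CUMS library, a mean of 0.12 CPM, Sema5b was at least 30.7-fold lower in CUMS (a log2 fold change of -4.94 or lower). The gene spans 35541154 to 35664261 on the plus strand, with 8 annotated transcripts. The values cover the whole gene, so neither an exon nor an isoform can be singled out. In bulk samples, fewer cells of a type and less RNA per cell cannot be told apart. Gm5963, a pseudogene inside the span of Sema5b on the opposite strand, was read at 8, 4 and 12 estimated counts in Control and 5, 1 and 11 in CUMS, all at or under that floor of 12.

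Slc15a2 transcript was low but present in every CUMS library. Control replicates 1 to 3 measured 9.64, 12.8 and 11 CPM, and CUMS replicates 1 to 3 measured 0.974, 0.935 and 1.58 CPM. The lowest Control library was 6.09-fold above the highest CUMS library, so the groups lay far apart. On average, 11.1 ± 1.59 CPM in Control stood against 1.16 ± 0.363 CPM in CUMS (SD, n = 3 each), a 9.57-fold difference. The CUMS values rest on 20.5, 26 and 42.8 read pairs. CUMS replicate 3 was the highest of its group, and the exact 95% Poisson interval of its 42.8 read pairs, 30.9 to 57.6, overlaps that of replicate 2, 17 to 38.1. These intervals and the floor cover counting error only, since read pairs can be PCR copies of 1 molecule. Slc15a2 spans 36750161 to 36785158 on the minus strand, and the pseudogene Gm8425 inside it was listed at 0 in all 6 libraries.

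Markers of other cell types also differed between the same libraries. Of 12 erythroid markers, 7 rose and 0 fell, where 2.36% and 2.14% of all genes tested did so. Their summed levels were 1313 to 1884 CPM in Control and 2530 to 3014 CPM in CUMS. Of 8 eosinophil markers, 2 rose, with sums of 44.9 to 51.9 and 51.6 to 60.1 CPM. These were the granule protein genes Prg2, from 0.885 ± 0.114 to 4.82 ± 0.708 CPM, and Epx, from 0.119 ± 0.11 to 1.49 ± 0.148 CPM. Of 8 basophil and mast cell markers, 7 were tested and 0 passed in edgeR, and Il4 was at 0 in all libraries. The sums were 38.6 to 43.2 and 35.1 to 40.4 CPM, most of it Kit (30.7 ± 2.13 and 32.5 ± 2.32 CPM, log2 fold change 0.08). The median log2 fold change of this list was -0.41. Its lowest estimates without overlap between the groups included Ms4a2 (-1.58 ± 0.44, edgeR adjusted p = 0.068) and Gata2 (-1.52 ± 0.39, adjusted p = 0.053), named after their values were seen. Mcpt8, Cpa3, Fcer1a and Prss34 had lower estimates in CUMS as well (-0.27, -0.16, -1.11 and -0.41). Of 7 plasma cell markers, 6 were tested and 1 fell (Xbp1), and Tnfrsf17 was at 0 in all libraries. The sums were 82.9 to 85.8 and 67.7 to 73.6 CPM, most of it Xbp1 itself (80.7 ± 1.16 and 65.9 ± 2.42 CPM). The median log2 fold change of the tested plasma cell markers was 0.18, so the lower sum reflects Xbp1 and not the list. Sums were 4.25 to 6.24 and 4.32 to 6.02 CPM over 10 T and NK cell markers, of which 5 were tested. They were 5.38 to 6.22 and 5 to 5.55 CPM over 6 megakaryocyte markers (3 tested), and 15.7 to 16.9 and 18.1 to 20.7 CPM over 8 stromal and endothelial markers (4 tested), and edgeR called no marker of these lists. The part of these cells in the levels of Sema5b and Slc15a2 was not tested.

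**Figure D1:**
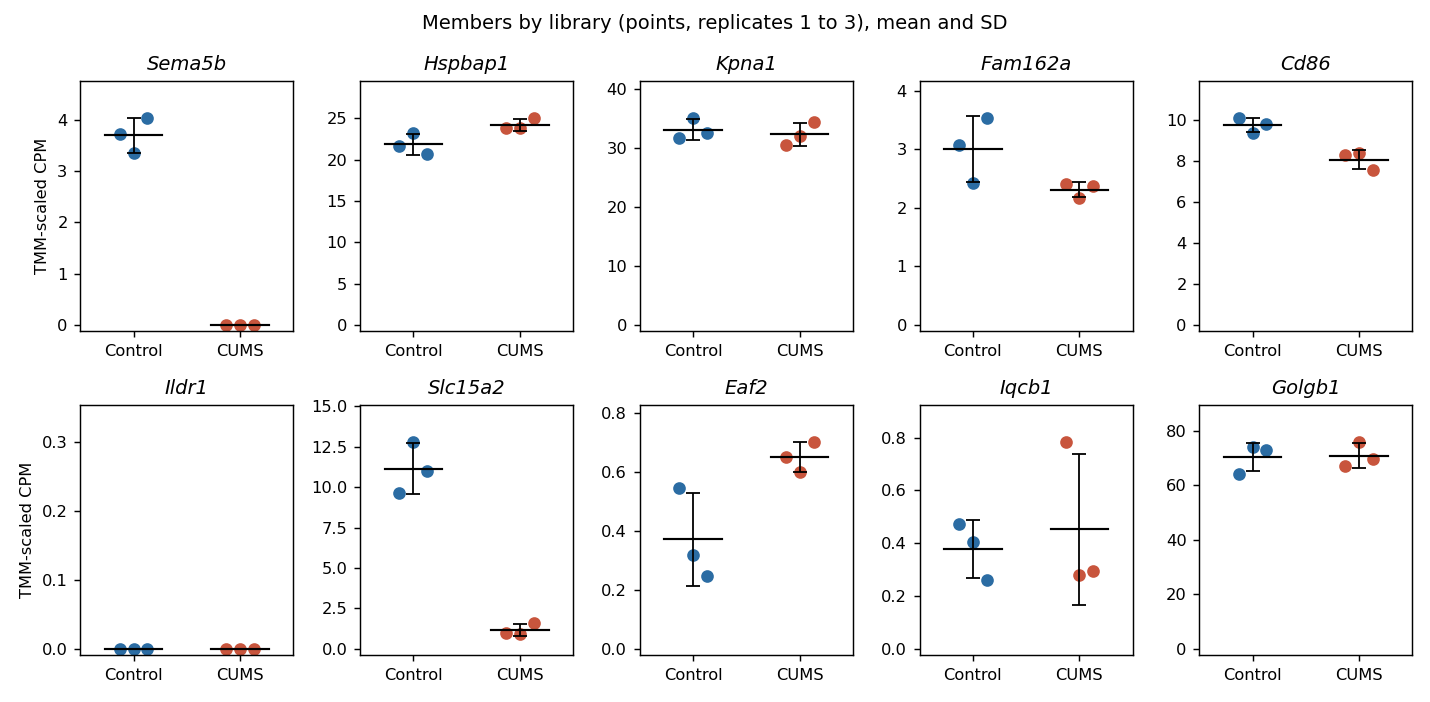
TMM-scaled CPM (vertical axis, each panel with its own scale from 0) of the 10 genes in the 3 Control and 3 CUMS libraries, in order along chromosome 16; points are libraries, lines the mean and bars the SD. Sema5b is at 0 in CUMS, Slc15a2 averages 11.1 CPM in Control and 1.16 CPM in CUMS, Ildr1 is at 0 throughout, and the groups overlap for Kpna1, Iqcb1 and Golgb1 but not for Hspbap1, Fam162a, Cd86 and Eaf2.

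Few genes with a mean of at least 1 CPM differed this much. Among the 11034 such genes tested, the fitted changes of Sema5b and Slc15a2 ranked first and second in size, and the next measured 7.8-fold. With genes of a lower mean included, fitted log2 fold changes reached 7.95, so the ranks hold only above that mean. Sema5b was the 1 gene listed at 0 in all libraries of a group with a mean of at least 1 CPM in the other. Both genes were selected on these values, so the ranks describe them and support nothing further.

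**Figure D2:**
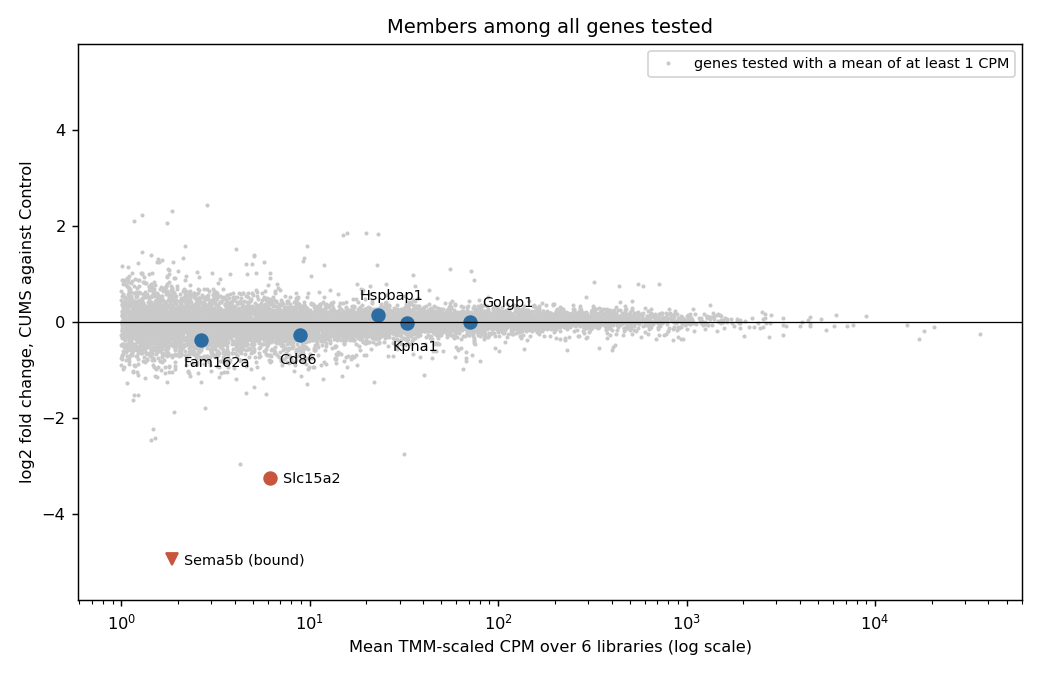
Log2 fold change (CUMS against Control) over mean CPM (log scale) for the genes tested with a mean of at least 1 CPM, one grey point a gene; blue points are members taken by position, red ones Sema5b (triangle, drawn at its bound of -4.94) and Slc15a2 (-3.25). The labelled blue points lie inside the grey cloud, while the red ones lie below it.

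Of the 8 genes taken by position, 7 passed the filter on low counts and 0 of these 7 passed the test in edgeR (quasi-likelihood F test, Benjamini-Hochberg adjustment over all genes tested, threshold 0.05). Over all 15777 genes tested, 4.5% passed, 2.36% as higher in CUMS and 2.14% as lower. One of the 7 had an unadjusted p under 0.05 (Cd86), and DESeq2 called 0 but gave no result for Eaf2 and Iqcb1. Their median log2 fold change was 0.01, against -0.01 for all genes tested. Hspbap1, Fam162a, Cd86 and Eaf2, 4 of the 7, had groups that did not overlap, as did 22.9% of all genes tested. A p that misses the threshold does not show equal levels, so the interval of each difference is given.

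Hspbap1 encodes a protein that binds a small heat shock protein. It measured 21.6, 23.2 and 20.7 CPM in Control and 23.8, 23.8 and 25 CPM in CUMS. The CUMS libraries all lay slightly higher, with a log2 fold change of 0.15 ± 0.073 (SE; 95% interval -0.01 to 0.31) and an edgeR adjusted p of 0.34.

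Kpna1 encodes importin alpha 5, an adaptor that carries proteins with a nuclear localisation signal into the nucleus. Its libraries ranged from 31.7 to 35.1 CPM in Control and from 30.6 to 34.4 CPM in CUMS. The groups overlapped over most of their range, and the log2 fold change was -0.03 ± 0.070 (95% interval -0.19 to 0.12, edgeR adjusted p = 0.88).

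Fam162a encodes a small mitochondrial protein induced by hypoxia. Control libraries measured 3.07, 2.42 and 3.53 CPM and CUMS libraries 2.4, 2.17 and 2.37 CPM, so the lowest Control library nearly met the highest CUMS library. The log2 fold change was -0.38 ± 0.20 (95% interval -0.82 to 0.06, edgeR adjusted p = 0.37).

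Cd86 encodes a B7 ligand that engages CD28 and CTLA-4 on T cells and is best known from dendritic cells, B cells and macrophages. Control libraries measured 10.1, 9.4 and 9.84 CPM and CUMS libraries 8.3, 8.39 and 7.56 CPM. All CUMS libraries were lower, by a log2 fold change of -0.27 ± 0.11 (95% interval -0.51 to -0.04), which did not pass after adjustment (edgeR adjusted p = 0.22). In the same libraries, 0 of 12 B cell markers passed, where 4.5% of all genes tested did. The summed level of these markers was 25 to 33.7 CPM in Control and 36.5 to 42.6 CPM in CUMS. Of 12 monocyte and macrophage markers, 2 were called higher, against 2.36% of all genes tested. Their sums were 769 to 820 and 733 to 826 CPM, most of it Ly6c2 (530 ± 24.3 and 484 ± 44.5 CPM). Of 9 dendritic cell markers, 8 were tested and 0 passed, and Xcr1 was at 0 in all libraries. The sums were 59.4 to 64.7 and 52.7 to 61.3 CPM, most of it Itgax (52.8 ± 2.79 and 48.9 ± 4.02 CPM). A sum led by 1 gene says little about the other markers of its list. The part of these cells in the level of Cd86 was not tested.

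Ildr1, which encodes a protein of tricellular epithelial junctions, was listed at 0 in all 6 libraries. A count of 0 allows up to 3 read pairs, or 0.108 to 0.153 CPM by library. No difference in it was detectable at this depth.

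Beyond Slc15a2, Eaf2 and Iqcb1 were read at very low levels. Eaf2 encodes a partner of the ELL elongation factors of RNA polymerase II, and Iqcb1 encodes nephrocystin-5, a protein of the primary cilium. Iqcb1 lies wholly within the span of Eaf2 on the opposite strand (36828360 to 36872719 within 36792884 to 36875068). Without knowledge of strand their reads may be shared, so both values are uncertain.

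Eaf2 measured 0.548, 0.319 and 0.247 CPM in Control and 0.653, 0.602 and 0.703 CPM in CUMS. All CUMS libraries were higher (log2 fold change 0.81 ± 0.46, 95% interval -0.20 to 1.83, edgeR adjusted p = 0.42), on 5.25 to 19 read pairs per library. Iqcb1 measured 0.472, 0.406 and 0.259 CPM in Control and 0.784, 0.279 and 0.296 CPM in CUMS. Its CUMS mean rested on replicate 1: the log2 fold change was 0.25 ± 0.57 (95% interval -1.01 to 1.51, edgeR adjusted p = 0.90) with all libraries and -0.40 without that one.

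Golgb1 encodes giantin, a long coiled-coil protein of the Golgi membrane, and starts at 36875093 on the plus strand, next to the start of Eaf2 on the minus strand. It had the highest level of the 10 genes, 64.3, 73.9 and 72.9 CPM in Control and 66.9, 75.9 and 69.7 CPM in CUMS. The groups overlapped, with a log2 fold change of 0.01 ± 0.067 (95% interval -0.14 to 0.15, edgeR adjusted p = 0.98). A long noncoding RNA gene inside it on the opposite strand, 4930565N06Rik, measured 2.94, 3.54 and 2.3 CPM in Control and 3.92, 4.54 and 4.62 CPM in CUMS and did not pass either (0.57 ± 0.19, edgeR adjusted p = 0.13). It was named after its values were seen.

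Levels can be compared between genes only per length, here as CPM per kb of annotated exon. In Control the order was Golgb1 (5.93 ± 0.445), Kpna1 (3.90 ± 0.206), Fam162a (3.54 ± 0.659), Cd86 (2.67 ± 0.0953), Hspbap1 (2.32 ± 0.137), Slc15a2 (1.51 ± 0.216), Sema5b (0.523 ± 0.0482), Eaf2 (0.085 ± 0.0359), Iqcb1 (0.0703 ± 0.0202) and Ildr1 at 0. Libraries of neighbours in that order overlapped for Kpna1 with Fam162a and for Eaf2 with Iqcb1. In CUMS, Slc15a2 measured 0.158 ± 0.0493 and overlapped with Eaf2 at 0.149 ± 0.0115, and Hspbap1 (2.57 ± 0.0709) stood above Cd86 (2.21 ± 0.125) without overlap. The exon length is that of all annotated transcripts together, which need not be those made in these cells.

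The 8 genes are a part of what lies in the region, so all annotated genes were counted as well. Between Sema5b and Slc15a2 the table holds 42 other genes, of which 21 passed the filter on low counts and 15 were at 0 in every library. Of the 21, 3 were higher in CUMS by the same test and 0 lower (14.3%, against 4.5% of all genes tested), with a median log2 fold change of -0.04. Of the tested genes that did not pass, the noncoding gene Gm15564 lay lowest at -1.32, on a mean of 0.299 CPM, and was named for that after its values were seen. The 3 called were Parp14, Dtx3l and Parp9, which lie side by side between Hspbap1 and Kpna1 and belong to the interferon-inducible genes. Parp14 and Parp9 encode members of the ADP-ribosyltransferase family, and Dtx3l encodes a ubiquitin ligase that pairs with PARP9. They moved in the direction opposite to that of the end genes.

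Dtx3l measured 69.8, 70.7 and 72.8 CPM in Control and 91.4, 89.1 and 91 CPM in CUMS. The groups were tight and well apart, with a log2 fold change of 0.35 ± 0.046 (edgeR adjusted p = 0.0015), and the call held when any single library was left out (adjusted p up to 0.013). Parp14 measured 117, 141 and 132 CPM in Control and 155, 153 and 156 CPM in CUMS (0.25 ± 0.061, edgeR adjusted p = 0.039). Parp9 measured 51.1, 47.3 and 49.8 CPM in Control and 63.7, 57.4 and 57 CPM in CUMS (0.27 ± 0.060, edgeR adjusted p = 0.029). The Parp9 call ended without any single library (adjusted p 0.055 to 0.12). The Parp14 call ended without any one other than Control replicate 2 (adjusted p 0.072 to 0.15). Dtx3l and Parp9 overlap at their starts (35938470 to 35939027) on opposite strands, so reads there cannot be told apart. The erythroid and eosinophil markers given above rose in the same libraries, and their part in these changes was not tested.

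The stefin A cluster, genes of cysteine protease inhibitors and their relatives, fills the middle of the interval with 13 rows. Of these, 10 were tested and 0 passed in edgeR, against 4.5% of all genes tested (3 at an unadjusted p under 0.05, 1 with DESeq2). Their log2 fold changes ran from -0.48 to 0.37, with a median of -0.22. Without CUMS replicate 1, 2 passed as lower, Cstdc4 (-0.30, edgeR adjusted p = 0.014) and Stfa3 (-0.60, adjusted p = 0.039), both named after their values were seen. Near-identical copies can exchange reads there. Leaving out that cluster and Parp14, Dtx3l and Parp9, the other 26 genes between the ends summed to 84.1, 86.7 and 82.5 CPM in Control and 83.8, 85.8 and 90.7 CPM in CUMS. Those totals overlapped between the groups, but a total can hide opposite changes. Within it Slc49a4 lay higher in CUMS, at 13.9 ± 2.52 against 10.9 ± 0.232 CPM (0.36 ± 0.13, edgeR adjusted p = 0.16), and was named after its values were seen. Cd86 and Fam162a lay lower, as given above.

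Within 1 Mb outside the interval on both sides lie 34 genes. Of these, 14 were tested and 0 passed in edgeR, against 4.5% of all genes tested (2 at an unadjusted p under 0.05, 1 with DESeq2). Their median log2 fold change was 0.01. The gene with DESeq2's call, Polq, which encodes a DNA repair polymerase, measured 4.58, 5.16 and 3.4 CPM in Control and 2.22, 2.16 and 3.16 CPM in CUMS (-0.80 ± 0.22, edgeR adjusted p = 0.063). It was named after its values were seen. On the rest of chromosome 16, 13 of 456 genes tested passed (2.85%), 9 higher and 4 lower.

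**Figure D3:**
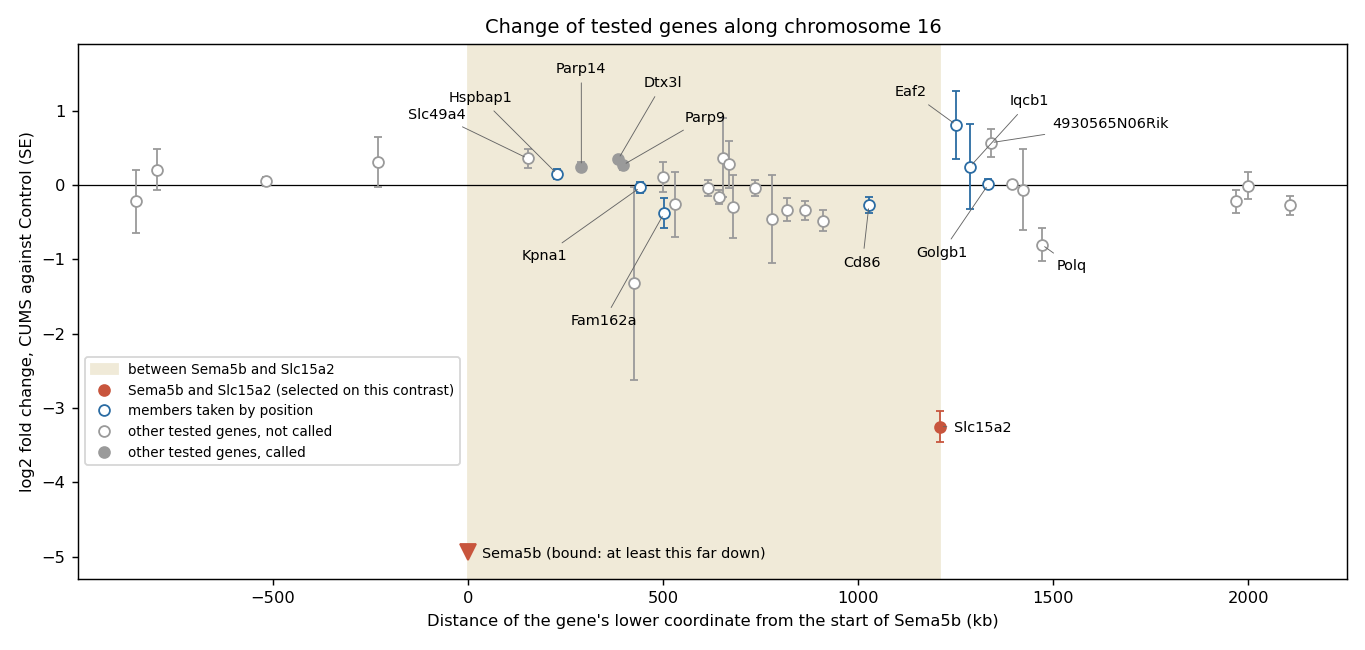
Log2 fold change (CUMS against Control, bars SE) of the genes tested, over the distance in kb of each gene's lower coordinate from the start of Sema5b; shading marks the stretch between Sema5b and Slc15a2, filled grey points are other genes that passed the test, and the triangle is the bound for Sema5b. Slc15a2 (-3.25) and Sema5b (bound -4.94) stand far below the genes between and around them, and the filled points Parp14, Dtx3l and Parp9 lie between 0.25 and 0.35.

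**Figure D4:**
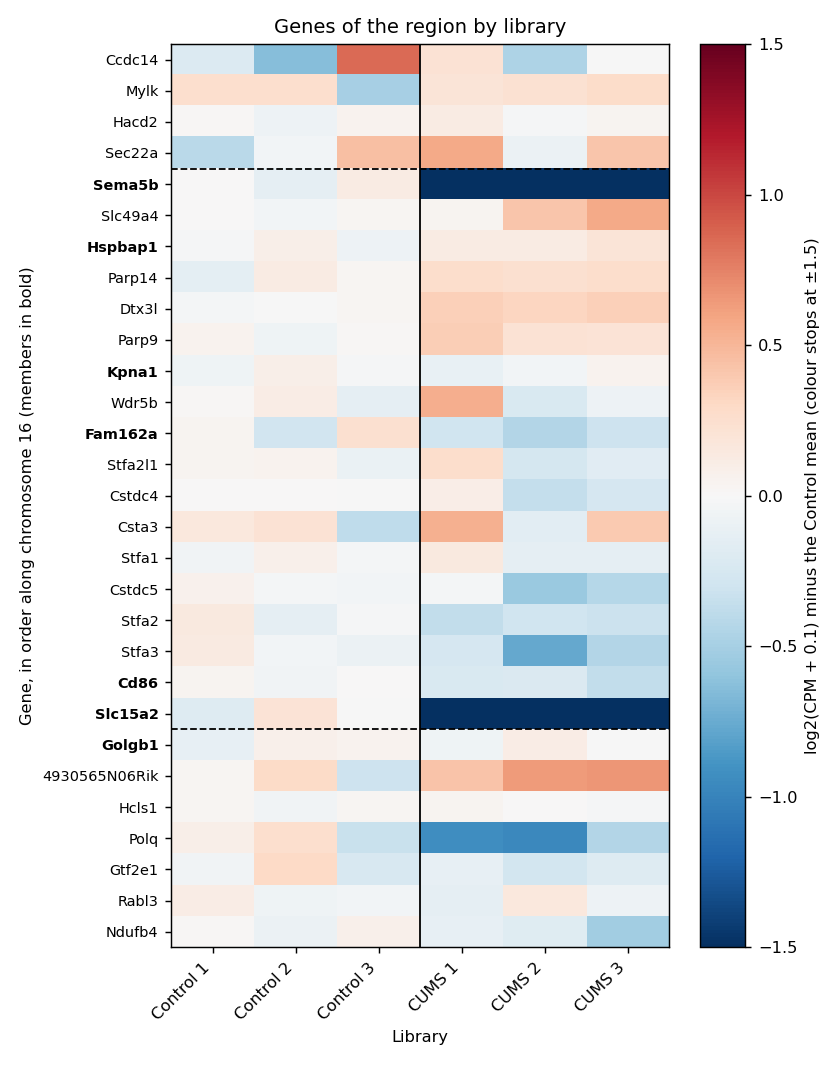
Heat map of log2(CPM + 0.1) minus the Control mean for the 29 tested genes of the region with a mean of at least 1 CPM, in order along chromosome 16 (rows) in the 6 libraries (columns); dashed lines enclose Sema5b to Slc15a2, and colour stops at 1.5 in either direction. The dark cells are those of Sema5b and Slc15a2 in all 3 CUMS libraries, and no row between them is as dark in any library.

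Other members of the semaphorin system moved both ways. A list of 38 other genes holds semaphorins, their receptors and proteins that act downstream of these, such as Rras and Dpysl2. Of these, 23 were tested, 4 rose, 1 fell and 18 did not pass (21.7% called, against 4.5% of all genes tested). Their median log2 fold change was 0.10. Sema6b, a class 6 semaphorin gene, fell in all 3 CUMS libraries, from a mean of 20.3 ± 0.67 CPM to one of 9.39 ± 0.215 CPM (log2 fold change -1.12 ± 0.086, edgeR adjusted p = 3.6e-05). Sema7a, which encodes a membrane-anchored semaphorin that binds integrins, rose by 0.33 ± 0.057 from 49.1 to 61.7 CPM (edgeR adjusted p = 0.0074), and these calls of Sema6b and Sema7a held without any single library.

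Sema4b rose by 0.43 ± 0.082 (edgeR adjusted p = 0.012), but not without Control replicate 2 or CUMS replicate 2 (0.067 and 0.070). Sema4a, which had the highest CPM of the list without regard to length, rose by 0.15 ± 0.035 from 547 to 608 CPM (edgeR adjusted p = 0.032). The plexin gene Plxnb3 rose by 1.30 ± 0.32 from 0.95 to 2.33 CPM (edgeR adjusted p = 0.041). The Sema4a call was kept only with CUMS replicate 1 left out and ended without each of the other 5 libraries (adjusted p 0.066 to 0.16). The Plxnb3 call was kept only with Control replicate 1 left out (0.057 to 0.16 without the others). Sema5a, the other class 5 gene, was below the filter at a mean of 0.0467 CPM in Control and 0 in CUMS. Its values lie at or under the floor.

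Other peptide transporters and NOD pathway genes did not pass in edgeR. Of 21 listed, 17 were tested and 0 passed in edgeR, against 4.5% of all genes tested (5 at an unadjusted p under 0.05, 3 with DESeq2). At that share 0 of 17 does not set the list apart, and its median log2 fold change was 0.03. DESeq2 called Nod2, Irf5 and Birc3, named here after their values were seen. Nod2, a NOD receptor gene, had groups without overlap, at 30.6 ± 0.88 and 36.1 ± 1.21 CPM (0.24 ± 0.061, edgeR adjusted p = 0.053). Estimates were 0.30 ± 0.079 for Irf5 (edgeR adjusted p = 0.057) and -0.14 ± 0.044 for Birc3 (edgeR adjusted p = 0.10). Slc15a3, a lysosomal relative of Slc15a2, measured 211 ± 10.8 and 227 ± 4.94 CPM (0.10 ± 0.046, edgeR adjusted p = 0.30), and Slc15a4 35.6 ± 0.89 and 37.7 ± 3.32 CPM (0.08 ± 0.071, adjusted p = 0.65). Slc15a1, which encodes the intestinal transporter PEPT1, was listed at 0 in all libraries. Tab2, an adaptor of the TAK1 kinase with the highest CPM of the list (not per length), measured 242 and 253 CPM (edgeR adjusted p = 0.41).

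Beside Cd86, a list of 16 genes holds the B7 family and its receptors, with related genes such as Cd40 and Marchf1. Of these, 11 were tested, and 2 rose and 0 fell (18.2%, against 4.5% of all genes tested). DESeq2 called 4 of them (Cd274, Icosl, Marchf1 and Vsir). The list had a median log2 fold change of 0.20. Cd274, which encodes PD-L1, rose from 16.3 ± 1.47 to 22.9 ± 1.75 CPM (0.49 ± 0.093, edgeR adjusted p = 0.012), but not without Control replicate 3 or CUMS replicate 3 (0.063 and 0.073). Vsir, which encodes the checkpoint protein VISTA, rose by 0.15 ± 0.032 from 1380 to 1534 CPM (edgeR adjusted p = 0.020), but not without Control replicate 2 or 3 or CUMS replicate 2 or 3 (0.070 to 0.11). Cd80, the closest relative of Cd86, measured 30 ± 2.78 and 29.1 ± 1.05 CPM (-0.04 ± 0.078, edgeR adjusted p = 0.85).

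Over the 6 libraries, log2 CPM of Slc15a2 correlated with that of Sema5b at r = 0.9858, and 21 genes with a mean of at least 1 CPM correlated more closely with Slc15a2. The closest 3 were Cenpf (r = 0.9986), Spag5 (0.9985) and Ppp1r3b (0.9977), on chromosomes 1, 11 and 8. Those closest to Sema5b were Tpx2 (0.9995), Sema6b (0.9989) and Tlr2 (0.9986). All of these were lower in CUMS by much smaller amounts, with log2 fold changes from -1.12 to -0.32. The 6 points share the 2 groups and little else, so r mainly follows the group difference.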

How the data were processed

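The deposited files hold whole numbers per gene and library that were taken as estimated counts, because 4, 8, 12 and 16 were found 1.89, 1.66, 1.41 and 1.38 times as frequently as adjacent values. Per the submitters' processing notes, bcl2fastq 2.19, cutadapt 1.16.5, HISAT2 2.1, featureCounts 1.6.4, DESeq2 2.11.40.6 and mm10 were used, and 1588 of 47561 rows carry assembled identifiers. Libraries were read as pairs of 150 bp, per the labels. Totals were 78845457 to 109757558 estimated counts per library, or 19711364 to 27439390 read pairs.

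Among rows sharing a symbol, the one with the highest total was used. The values entered edgeR 4.0.16 (R 4.3.3) as deposited, with filterByExpr defaults, TMM scaling and group as the single term. SE and 95% intervals derive from the F test. DESeq2 1.42.0 and limma 3.58.1 (voom) were alternatives. Exact permutation tests of 3 against 3 libraries cannot go below 0.1 and were not used. Positions came from RefSeq on GRCm38.p6, which placed 96.5% of symbols, and exon lengths from GENCODE M21.

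Members and lists were chosen with earlier results of these data known. Named were all members, called genes of the interval, its flanks and the pathway lists, the gene of highest CPM in each list, and the 3 most similar patterns. The interval genes of highest CPM (not per length) outside the stefin A cluster are the called ones.

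Same-numbered libraries did not deviate together (r = 0.008, 0.003 and -0.026 over genes), so they were not treated as pairs.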

Additional observations from a re-analysis of the deposited data

How the results depend on the processing

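Of the 8 genes taken by position, 0 passed under each of the 14 alternatives run, leaving out each library included. Not all of the 8 could pass: Ildr1 was at 0 throughout, DESeq2 gave no result for Eaf2 and Iqcb1, and values divided by 4 gave none for Iqcb1. The count of all genes called went from 710 to 1156 with DESeq2, and ranged from 305 to 697 when a library was left out. The 3 calls between the end genes ranged from 1 to 4 when a library was left out, and the call that held in each of these fits was Dtx3l. Without CUMS replicate 1 the 4 were Dtx3l, Slc49a4 (0.49), Cstdc4 (-0.30) and Stfa3 (-0.60), and Parp14 and Parp9 were not among them. With DESeq2, limma voom, values divided by 4 or the replicate number as a block, Stfa3 was added as lower (4 calls each). With the replicate block 931 genes passed in all, and it changed no call of a member. The flanks went from 0 calls to 1 (Polq) with DESeq2 and with values divided by 4. Some estimates near 0 changed sign when a library was left out. Kpna1 ranged from -0.08 to 0.01 (0.01 without Control replicate 2 and without CUMS replicate 1). Golgb1 ranged from -0.05 to 0.05 (-0.05 without Control replicate 1, -0.04 without CUMS replicate 2). Iqcb1 ranged from -0.40 without CUMS replicate 1 to 0.51. The cause was not tested. The log2 fold change of Slc15a2 stayed between -3.54 and -3.11 over all 14. Depth limits Eaf2, Iqcb1 and Ildr1, each at fewer than 20 read pairs per library.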
